A study of Homo sapiens with 32 samples.

Results

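The comparison described here set HEK293T cells given STM2457 for 9 h against cells given its solvent for the same time. Its members were chosen by the labels alone and were 8 of the 32 samples of the series, 4 in each group. HEK293T is an established cell line from human embryonic kidney, a derivative of HEK293 with the large T antigen of SV40. STM2457 is a small-molecule inhibitor of METTL3. The treated group was labelled WT and received 20 µM STM2457 in 0.2% DMSO by volume. The control group was labelled WT as well and received 0.2% DMSO alone. All 8 samples come from 1 cell line, so the values speak for these cells only. Poly(A) RNA was sequenced from strand-specific libraries. The other 24 samples were taken at 6 h and are treated here as 2 further experiments, one with YTHDF2 siRNA and one with emetine. Only their 12 libraries without YTHDF2 siRNA or emetine are used below.

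N6-methyladenosine (m6A) is a methyl group on the adenosines of messenger RNA. It is written during transcription by a complex of METTL3, which carries out the catalysis, METTL14, which holds the RNA, and adaptors such as WTAP, VIRMA, ZC3H13, CBLL1, RBM15 and RBM15B. The mark lies in a short consensus sequence, it is rare close to exon junctions because the exon junction complex keeps the writer away, and cytoplasmic YTHDF proteins bound to it bring in the CCR4-NOT deadenylase, which shortens the life of the mRNA. Messenger RNAs that carry many marks are therefore known to be short-lived in cells with an active writer.

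Read counts per gene were compared with edgeR's quasi-likelihood test and Benjamini-Hochberg adjustment over 15834 genes. A gene was called where its adjusted p was under 0.05. Levels are given in CPM, the usual unit for counts divided by library size, here after TMM scaling. A positive log2 change stands for a higher level with STM2457, and SE is the standard error of that change. Of the 15834 genes, 5104 rose and 5140 fell, and 5590 were not called. The background for any group of genes below is thus 32.2% called higher, 32.5% called lower and 64.7% called in either direction. The libraries of the 2 groups did not overlap for 57.5% of genes. In bulk RNA, fewer cells that hold a transcript and less of it per cell cannot be told apart.

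Most of these changes were small, and the large ones were mostly increases. Among called genes the median log2 change was 0.42 for those that rose and −0.30 for those that fell, and 4656 called genes (45.5%) differed by less than 1.25-fold. A change of 1.5-fold or more was reached by 1602 genes that rose and 726 that fell. At 2-fold or more there were 393 higher and 168 lower genes, 2.48% and 1.06% of those tested. At 4-fold or more there were 18 and 9. Among the 6865 genes whose mean log2 CPM reached 5, 82 rose by 2-fold or more and 8 fell by as much. These values are drawn in the plot of log2 change against expression.

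**Figure D1:**
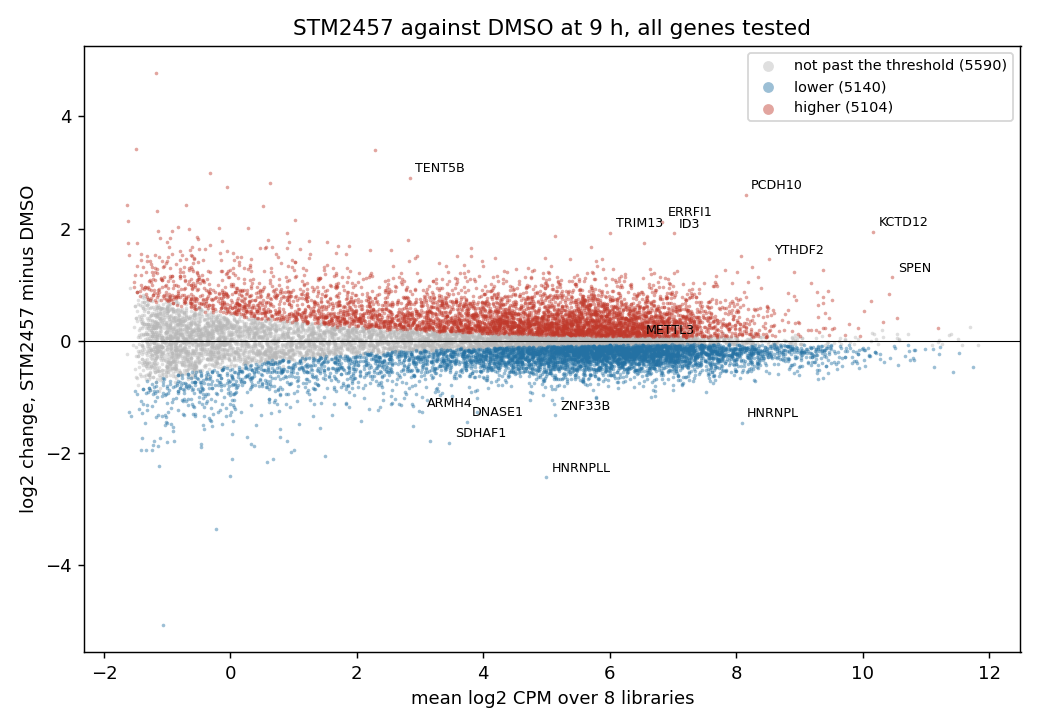
Log2 change with STM2457 at 9 h (vertical axis, STM2457 minus DMSO) against mean log2 CPM (horizontal axis) for the 15834 genes tested, each point 1 gene, coloured by the call at an adjusted p of 0.05. The 393 genes past 2-fold on the upper side extend to higher expression than the 168 on the lower side.

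The libraries held 22510323 to 34677704 counts on genes, enough for a median SE of 0.0535 on the log2 scale. The common biological coefficient of variation was 3.5%. Of the 5590 genes not called, 2538 had a 95% interval that lay within 1.25-fold of no change; for the others a change of that size was not resolved. The first principal component held 66.9% of the variance and separated the groups. DMSO replicate 4 held the largest share of mitochondrial DNA transcripts, 2.27% against 1.21 to 2.04% in the other 7 libraries. The 10 HEK293T markers, among them VIM, KRT8, KRT18, NEFM and PAX2, were all detected, with summed levels of 1580 to 1600 CPM with DMSO and 1540 to 1610 CPM with STM2457. Of these 10, 4 were called higher and 4 lower: VIM went from 850 to 885 CPM with DMSO to 624 to 669 CPM, and NEFM from 266 to 311 CPM to 415 to 441 CPM. The neuron markers summed to 512 to 558 CPM with DMSO and 706 to 734 CPM with STM2457, mostly NEFM and NEFL, which are also markers of the line; 9 of those 14 genes were under 1 CPM. The part of these markers in other results was not tested. Markers of blood cells and hepatocytes summed to at most 2.49 and 0.557 CPM in any library. Those of fibroblasts and squamous cells summed to 24.3 to 28.5 and 24.0 to 28.1 CPM, mostly COL1A1 and KRT10, at like levels in both groups.

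The following stretches of coding sequence show the feature that is measured across all genes further below. Each is 90 bases long, written 5′ to 3′ on the transcript strand, from the longest complete coding transcript in GENCODE release 29 on GRCh38, and the capitals mark the m6A consensus motif: A, G or T, then A or G, then A, C, and then A, C or T. Where 2 motifs share letters the run of capitals is longer. The first 5 come from genes that rose and lie inside long exons, with every motif at least 100 bases from an exon junction. The last 3 come from genes that fell and lie inside short exons, with every motif closer to a junction than that. The windows are at chr1:27006762-27006851 (TENT5B, minus strand, exon 2 of 2), chr4:133150311-133150400 (PCDH10, plus strand, exon 1 of 5), chr13:76885854-76885943 (KCTD12, minus strand, its single exon), chr1:110341020-110341109 (RBM15, plus strand), chr7:27171937-27172026 (HOXA10, minus strand), chr19:38847345-38847434 (HNRNPL, minus strand, exon 2 of 13), chr19:39980290-39980379 (PSMC4, plus strand, exon 9 of 11) and chr5:171405302-171405391 (NPM1, plus strand, exon 9 of 11).
TENT5B: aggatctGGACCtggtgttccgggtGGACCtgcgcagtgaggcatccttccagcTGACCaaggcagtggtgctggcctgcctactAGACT
PCDH10: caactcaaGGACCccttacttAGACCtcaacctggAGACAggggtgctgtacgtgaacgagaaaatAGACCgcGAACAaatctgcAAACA
KCTD12: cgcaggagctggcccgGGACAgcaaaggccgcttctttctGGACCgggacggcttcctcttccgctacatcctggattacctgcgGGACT
RBM15: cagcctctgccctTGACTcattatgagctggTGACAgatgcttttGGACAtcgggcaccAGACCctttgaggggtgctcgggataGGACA
HOXA10: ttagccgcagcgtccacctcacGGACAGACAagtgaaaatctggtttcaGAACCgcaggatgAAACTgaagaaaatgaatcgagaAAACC
HNRNPL: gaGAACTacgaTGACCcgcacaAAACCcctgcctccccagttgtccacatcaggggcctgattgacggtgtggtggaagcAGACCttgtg
PSMC4: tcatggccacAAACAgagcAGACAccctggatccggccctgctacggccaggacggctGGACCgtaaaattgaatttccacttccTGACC
NPM1: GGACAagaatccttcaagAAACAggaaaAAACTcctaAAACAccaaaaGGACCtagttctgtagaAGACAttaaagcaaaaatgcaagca
In the PCDH10 window 6 motifs lie 2374 to 2451 bases from the nearest junction, in an exon of 3457 bases. The NPM1 window also holds 6 motifs, and these lie 2 to 50 bases from a junction, in an exon of 102 bases. The first 5 windows were chosen for the most motifs away from junctions, and the last 3 for the most motifs at any position. All serve as illustrations only.

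The targeted enzyme itself was not called at the RNA level, while most of its partners were higher. METTL3 stood at 91.1, 91.1, 88.95 and 84.8 CPM in the 4 DMSO libraries and at 91.5, 88.4, 91.2 and 91.4 CPM with STM2457. The groups overlapped, and the log2 change was 0.03 (SE 0.033, adjusted p = 0.512 by edgeR). Exons of METTL3 and TOX4 overlap, so a part of these reads is uncertain. STM2457 acts on the METTL3 protein, so this RNA level is no check of the treatment. METTL14, the RNA-binding partner, rose from 44.8, 46.2, 46.6 and 47.2 CPM to 62.6, 65.9, 65.3 and 61.6 CPM. No library overlapped, and the log2 change was 0.47 (SE 0.037, edgeR adjusted p = 4.08e-11).

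Of the 8 writer genes tested, 7 rose and 0 fell, against 32.2% and 32.5% of all genes, and their median log2 change was 0.51. By DESeq2 the count that fell was 0 as well, and it was 0 at an unadjusted edgeR p under 0.05. RBM15, an adaptor that guides the writer to its sites, had the largest change of the list. Its levels were 43.7, 41.7, 45.4 and 41.95 CPM with DMSO and 140.4, 153, 143 and 141 CPM with STM2457. They did not overlap, with a log2 change of 1.74 (SE 0.037, edgeR adjusted p = 1.84e-21). RBM15B, its paralog, rose from 155 ± 3.2 to 364 ± 6.18 CPM (mean ± SD, n = 4). WTAP, which joins the catalytic pair to the adaptors, rose from 136 ± 2.33 to 210.3 ± 9.07 CPM, and CBLL1 from 60.3 ± 2.46 to 88.7 ± 3.04 CPM. METTL16, which methylates U6 RNA and the MAT2A mRNA on its own, was placed among the other RNA methylation enzymes and rose from 89.05 ± 3.9 to 159.5 ± 4.29 CPM; that list of 37 held 13 genes that rose and 15 that fell, and 18 and 7 with scaling to ribosomal protein genes.

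The m6A readers moved in both directions. Of 12 readers and erasers, 7 rose and 3 fell, with a median log2 change of 0.16. YTHDF2, the cytoplasmic reader that recruits CCR4-NOT, was at 189.5, 202, 199 and 196 CPM with DMSO and at 509, 563, 535 and 543 CPM with STM2457. The highest control value lay far below the lowest treated value, and the log2 change was 1.45 (SE 0.033, edgeR adjusted p = 5.18e-21). Its paralogs changed less, YTHDF1 by 0.42 and YTHDF3 by 0.42, and the nuclear reader YTHDC1 rose by 0.40. The genes that fell were FMR1 (log2 change −0.16), IGF2BP1 (−0.13) and YTHDC2 (−0.12), and each of these values turned positive when libraries were scaled to ribosomal protein genes (0.02, 0.05 and 0.05).

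Factors of mRNA decay downstream of the readers were split, and the split depended on the scaling. Among 21 deadenylase genes 8 rose and 8 fell. TNKS1BP1, a CCR4-NOT subunit, rose from 74.2 ± 1.87 to 161 ± 8.69 CPM and BTG2, which binds the deadenylases, from 27.8 ± 1.02 to 57.7 ± 3.16 CPM, while the subunit CNOT3 had a log2 change of −0.43. Of 20 decapping and P-body genes 4 rose (DCP1B by 0.34, NUDT16 by 0.25, LSM1 by 0.16 and DDX6 by 0.12) and 12 fell, and of 24 exosome genes and cofactors 6 rose and 16 fell. With scaling to ribosomal protein genes these became 8 and 5, and 8 and 10, and the deadenylases 13 and 4. Of 12 poly(A) and uridyl polymerases 8 rose and 2 fell, with TENT5B, described next, far above the others, and PAPOLA (−0.33), the main nuclear poly(A) polymerase, and TENT2 (−0.13) as the ones that fell. The TENT2 value was 0.04 with scaling to ribosomal protein genes and was not called without STM2457 replicate 3 (−0.16 to −0.10 without single libraries).

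The 15 protein coding genes with the largest increases, among those whose mean log2 CPM reached 2, held regulators of signalling, adhesion and transcription. TENT5B, a nucleotidyltransferase of the family that lengthens poly(A) tails, stood at 1.76, 1.91, 1.74 and 1.498 CPM with DMSO and at 12.6, 13.7, 13.01 and 12.5 CPM with STM2457. Every treated library was above every control, and the log2 change of 2.91 (SE 0.092, edgeR adjusted p = 2.14e-18) was the largest of the 15. PCDH10, a protocadherin of cell-cell adhesion, rose from 83.0, 82.1, 79.2 and 77.5 CPM to 525, 470.0, 498 and 467 CPM. These groups were also far apart, 6.09-fold by their means, with a log2 change of 2.61 (SE 0.038).

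ERRFI1, which binds and damps the EGF receptor, was at 42.6, 42.3, 44.2 and 42.5 CPM with DMSO and at 165, 204, 188 and 189.7 CPM with STM2457. Its controls lay within a few percent of each other and its log2 change was 2.12 (SE 0.047). KCTD12, encoded by a single exon and known as a partner of GABA-B receptors, was at 444, 463, 486 and 495 CPM and 1860.0, 1850.0, 1833 and 1737 CPM. Its log2 change was 1.95 (SE 0.038), and with a rise in mean level of 1348 CPM it gained more reads than any other called gene. ID3, an inhibitor of basic helix-loop-helix factors and a target of BMP signalling, was at 53.9, 51.6, 53.4 and 58.2 CPM and 170.5, 218, 215 and 218 CPM. STM2457 replicate 1 was the lowest of the treated libraries for ID3, and the log2 change was 1.92 (SE 0.057).

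FAT4, a giant atypical cadherin, was at 15.6, 15.5, 14.7 and 15.6 CPM with DMSO and at 58.4, 55.0, 58.6 and 53.3 CPM with STM2457, a log2 change of 1.87 (SE 0.046). NEXMIF, a gene of neuron migration and neurite extension, was among the least abundant of these, at 2.41, 2.68, 2.05 and 2.09 CPM and 6.63, 7.15, 6.97 and 7.49 CPM. Neither gene had overlapping libraries, and NEXMIF changed by 1.61 (SE 0.10). The Mediator subunit MED18 rose from 25.4 ± 0.566 to 80.2 ± 3.54 CPM, while of the 47 Mediator and TFIID genes 13 rose and 22 fell, or 22 rose and 12 fell with scaling to ribosomal protein genes. HOXD13 rose from 141 ± 3.06 to 399 ± 27.9 CPM, the G protein subunit GNB3 from 7.41 ± 0.507 to 21.2 ± 2.22 CPM and SKIDA1 from 9.79 ± 0.418 to 27.3 ± 2.54 CPM. TRIM13 rose from 27.2 ± 1.41 to 103 ± 3.07 CPM, DEPP1 from 6.89 ± 0.33 to 21.5 ± 1.83 CPM and LENG9 from 4.098 ± 0.279 to 11.7 ± 0.559 CPM. For the last 3 and for GNB3 the reads could not be assigned with certainty, since their exons overlap those of KCNRG, RASSF4, LENG8 and CDCA3, and the strand setting of the counting is not given in the sources used here.

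**Figure D2:**
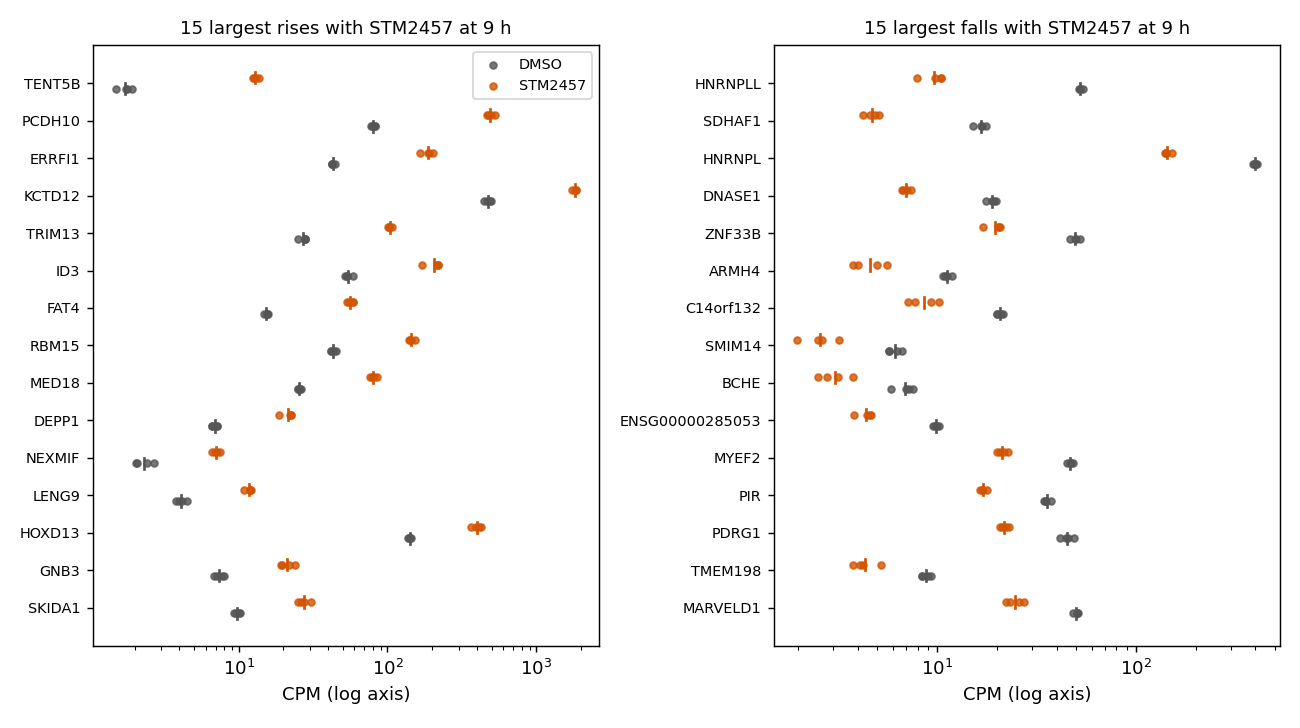
Levels in each of the 8 libraries (CPM, log axis) of the genes named by the size of their change, DMSO and STM2457 side by side, each point 1 library. The 4 TENT5B controls sit between 1.498 and 1.91 CPM and the 4 treated libraries between 12.5 and 13.7 CPM.

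Among called protein coding genes whose mean log2 CPM reached 2 and whose groups did not overlap, the largest decreases were smaller than the largest increases. Of the 3 largest decreases under these limits, 2 were in related splicing regulators. Over all genes tested, without these limits, the log2 changes ran from −5.07 to 4.77. HNRNPLL, a splicing regulator best known from lymphocytes, was at 52.3, 52.2, 54.3 and 51.7 CPM with DMSO and at 10.4, 10.5, 9.83 and 7.92 CPM with STM2457. The treated libraries lay far below every control, and the log2 change was −2.43 (SE 0.058, edgeR adjusted p = 8.79e-21). HNRNPL, its abundant paralog, was at 409.5, 401, 393 and 388 CPM and 142, 140.3, 142 and 152 CPM. No library overlapped and the log2 change was −1.47 (SE 0.032); a same-strand gene, ENSG00000268083, overlaps 8.2% of HNRNPL, so a part of these reads is uncertain.

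SDHAF1, an assembly factor of respiratory complex II, was at 16.9, 17.7, 16.7 and 15.3 CPM with DMSO and at 4.89, 4.27, 5.13 and 4.604 CPM with STM2457, a log2 change of −1.82 (SE 0.076). ZNF33B, a zinc finger gene, went against most of its family, with 46.7, 49.8, 52.2 and 49.2 CPM and 20.3, 20.7, 17.01 and 20.4 CPM and a change of −1.33 (SE 0.054). In both genes the groups were clearly apart. PIR, an iron-binding nuclear protein, fell from 35.6 ± 1.24 to 17.1 ± 0.622 CPM, MARVELD1 from 50.1 ± 1.35 to 24.7 ± 2.27 CPM and C14orf132 from 20.7 ± 0.695 to 8.64 ± 1.44 CPM. BCHE, the plasma cholinesterase, fell from 6.91 ± 0.756 to 3.08 ± 0.546 CPM, ARMH4 from 11.2 ± 0.507 to 4.61 ± 0.855 CPM and SMIM14 from 6.13 ± 0.43 to 2.595 ± 0.508 CPM, all at low levels. The remaining 5 of the 15, DNASE1, MYEF2, PDRG1, TMEM198 and ENSG00000285053, had log2 changes of −1.45, −1.14, −1.05, −1.03 and −1.16, and each overlaps exons of another gene (TRAP1, SLC24A5, TTLL9, CHPF and TBCE in that order).

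In reads gained or lost rather than in fold, a measure that is not per length and so favours long and abundant transcripts, chromatin and RNA-binding proteins stood beside KCTD12. SPEN, a large RNA-binding corepressor, was at 826, 895, 934 and 891 CPM with DMSO and at 2071, 1975, 1871 and 1872 CPM with STM2457. The treated libraries were all far above the highest control, and the gain in the mean was 1061 CPM. The transcription factor gene ZNF503 gained 545 CPM, the bromodomain gene BRD2 539 CPM, HNRNPF 418 CPM and SRRM2, a scaffold of nuclear speckles, 412 CPM. HSPA1B gained 766 CPM, but it is nearly identical to HSPA1A, so the reads of the pair may have been split. The losses were led by chaperones and by abundant housekeeping mRNAs. HSP90AA1, a cytosolic chaperone, fell from 3852, 3977, 4073 and 4016 CPM to 2717, 3035, 3008 and 2687 CPM. No treated library reached the lowest control. The mean level changed by −1070 CPM for the chaperone HSPA8, −717 CPM for the glycolytic gene ENO1, −453 CPM for the translation factor EIF4G2, −429 CPM for NPM1, −412 CPM for RACK1 and −380.1 CPM for HNRNPU, all called lower. HSP90AB1 changed by −446 CPM, a log2 change of −0.22 that was no longer called when libraries were scaled to ribosomal protein genes (−0.05).

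HOX genes and other developmental transcription factors were mostly higher. Of 37 HOX genes tested 34 rose and 1 fell, with a median log2 change of 0.71 against 0.00 over all genes, and 10 of them rose by 2-fold or more. HOX proteins are homeodomain factors that pattern the body axis, and members of all 4 human clusters were measured. HOXA10 was at 89.04, 82.7, 86.2 and 81.8 CPM with DMSO and at 156, 162, 168 and 163 CPM with STM2457, with no overlap and a log2 change of 0.93 (SE 0.033). HOXB9 rose from 289 ± 6.33 to 676 ± 15.6 CPM and HOXA11 from 46.5 ± 0.479 to 106 ± 1.95 CPM. HOXD4 was the only one called lower (−0.49), and a same-strand gene covers 80.5% of it, so its reads are uncertain.

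Other transcription factor families shared the direction. Of 427 ZNF genes 254 rose and 53 fell (median 0.26), of 39 ZBTB genes 29 rose and 7 fell (0.23), of 21 KLF and SP genes 16 rose and 1 fell (0.37), and of 12 SOX genes 8 rose and 1 fell (0.38). Among 33 FOX genes 19 rose and 6 fell (0.32). Of these, 3 rose and 1 fell by 2-fold or more, and the lowest log2 change in the FOX list was −2.12. ZNF292 rose by 1.12, ZBTB38, which binds methylated DNA, by 1.23, KLF9 by 1.10 and SOX4 by 0.89. The members called lower included ZBTB17 (−0.90), a zinc finger factor also known as MIZ1, KLF15 (−0.22) and SOX6 (−0.21). KLF15 and SOX6 were no longer called with scaling to ribosomal protein genes, and SOX6 was not called without DMSO replicate 1 or 3 or STM2457 replicate 3 or 4 either (−0.26 to −0.16 without single libraries). Of 33 histone lysine methyltransferases 21 rose and 6 fell (median 0.23). NSD1 rose by 0.84, SETD2 by 0.72, PRDM2 by 0.62 and SETDB1 by 0.57, whereas EZH2, the catalytic subunit of Polycomb complex PRC2, changed by −0.42 and SMYD3 by −0.70.

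Lists of signalling regulators held more increases than decreases. Among 30 genes of MAPK and receptor kinase feedback 22 rose and 0 fell (median 0.34). The count that fell was 0 also by DESeq2 and at an unadjusted edgeR p under 0.05, and 1 without STM2457 replicate 2. Besides ERRFI1, the phosphatases DUSP1 and DUSP16, which switch off MAP kinases, rose by 0.97 and 0.73, and LRIG3 by 0.63. Of 28 NOTCH genes 19 rose and 1 fell (0.39). The coactivator MAML1 rose by 0.97, the target HEY1 by 0.86, the feedback inhibitor NRARP by 0.78 and the receptor NOTCH2 by 0.61. NUMB, an antagonist of NOTCH, was the 1 member called lower (−0.15), and that value was 0.02 with scaling to ribosomal protein genes. Of 25 BMP and TGF-beta genes 19 rose and 1 fell (0.33), with ID3 as the largest change and the ubiquitin ligase SMURF1 (−0.33) as the one that fell.

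Of 35 immediate early genes 22 rose and 0 fell (median 0.34), with 0 lower by DESeq2 and at an unadjusted edgeR p under 0.05, and 1 lower without DMSO replicate 4 or STM2457 replicate 4. Of 20 Hippo and YAP genes 12 rose and 1 fell, with the kinase LATS2 at 1.27 and AMOTL2, the one that fell, at −0.64. Of 19 WNT genes 11 rose and 1, the factor TCF7 (−0.21), fell. Of 105 protocadherins, cadherins and FAT genes 35 had enough counts to be tested, of which 20 rose and 3 fell (median 0.24). Of the 3, CELSR3 changed by −0.22, and PCDHGC3 (−0.60) and PCDHGC4 (−0.56) share exons of the gamma cluster, so their reads are uncertain. In the integrated stress response list 16 of 27 rose and 5 fell (median 0.26). Those that rose included DDIT4 (1.21), an inhibitor of mTORC1, CEBPG (1.03) and the amino acid transporter SLC7A5 (0.73). Those that fell were the serine and one-carbon enzymes SHMT2 (−0.22), PHGDH (−0.20) and MTHFD2 (−0.17), the factor DDIT3, also known as CHOP (−0.44), and PPP1R15B (−0.07).

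Genes of protein turnover and folding were mostly lower. Of 40 proteasome genes 36 fell and 0 rose, with a median log2 change of −0.57. The count that rose was 0 by DESeq2 and at an unadjusted edgeR p under 0.05 too. PSMC4, an ATPase of the regulatory particle, was at 168, 161, 156 and 159 CPM with DMSO and at 87.0, 95.3, 95.1 and 94.5 CPM with STM2457. No library overlapped, and the log2 change was −0.79 (SE 0.034). PSMC5, a second ATPase, changed by −0.77, the ubiquitin receptor ADRM1 by −0.76 and the deubiquitinase PSMD14 by −0.76. Scaling to ribosomal protein genes left 32 lower and 0 higher, with a median of −0.40.

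Of 34 heat shock and chaperonin genes 27 fell and 4 rose (median −0.39). Subunits of the TRiC chaperonin led the decreases, TCP1 at −0.69, CCT4 at −0.66, CCT2 at −0.62 and CCT6A at −0.52. The genes that rose were the stress-inducible pair HSPA1A (1.04) and HSPA1B (0.83), whose reads cannot be told apart with certainty, and the cochaperones BAG3 (0.21) and DNAJB4 (0.13). DNAJB4 was not called when DMSO replicate 2, 3 or 4 or STM2457 replicate 2 or 3 was left out (0.10 to 0.18 without single libraries). Of 26 genes of the unfolded protein response 5 rose and 14 fell, 9 fell without DMSO replicate 2, and with scaling to ribosomal protein genes 13 rose and 1 fell. HSPA5, the chaperone of the endoplasmic reticulum, rose by 0.53, and the others that rose were DNAJB9 (0.46), ERN1 (0.24), EDEM1 (0.20) and MANF (0.15).

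Cell division genes were mostly lower, by modest amounts. Of 45 genes of DNA replication and nucleotide synthesis 37 fell and 5 rose (median −0.31). CDC45, of the replicative helicase, changed by −0.56 and thymidylate synthase (TYMS) by −0.54, whereas FEN1, the flap endonuclease, rose from 174 ± 1.9 to 433 ± 7.47 CPM and UMPS, of pyrimidine synthesis, by 0.78. The other increases were GINS3 (0.46), ORC1 (0.20) and POLD3 (0.15). Of 45 G2/M and spindle genes 37 fell and 3 rose (median −0.31). CDC20, which activates the anaphase-promoting complex, fell from 239.7 ± 4.88 to 128 ± 2.78 CPM, NDC80 of the kinetochore changed by −0.75, ANLN by −0.56 and cyclin B1 (CCNB1) by −0.53. The 3 that rose were KNL1 (0.21), CENPF (0.18) and FOXM1 (0.09). Of 35 G1/S genes 7 rose and 17 fell, 4 rose without DMSO replicate 2 or 3 or STM2457 replicate 4, and with scaling to ribosomal protein genes 18 rose and 8 fell.

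Lists of splicing factors held more decreases than increases, by a margin that depended on the scaling. Of 41 core spliceosome genes 33 fell and 2 rose, PHF5A (0.16) and DHX8 (0.13), but the median change was only −0.18, and with scaling to ribosomal protein genes 12 fell and 8 rose (median 0.00). PRPF19 changed by −0.71, PLRG1 by −0.60, SNRPD1 by −0.56 and SF3A3 by −0.55. Of 37 hnRNP genes and related regulators 26 fell and 4 rose (median −0.20), and with that scaling 12 fell and 7 rose. RALY changed by −0.52, while HNRNPF, HNRNPA0, PCBP1 and HNRNPR rose by 0.88, 0.47, 0.42 and 0.18; the first 3 of these have an intron-free coding sequence. Of 23 SR factors 6 rose and 9 fell, and with that scaling 13 rose and 3 fell.

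Nuclear-encoded mitochondrial genes were mostly lower. Of 36 complex I genes 29 fell and 0 rose (median −0.26), with 0 higher by DESeq2 and at an unadjusted edgeR p under 0.05. Of 44 genes of complexes II to V 36 fell and 1, UQCRFS1 (0.33), rose (median −0.21), and of 21 citrate cycle genes 19 fell and 1, OGDH (0.25), rose (median −0.25). NDUFS4 changed by −0.76, UQCR11 by −0.80, CYC1, the cytochrome c1 gene, by −0.70, SUCLG1 by −0.65 and fumarase (FH) by −0.57. With scaling to ribosomal protein genes these lists held 16, 17 and 9 lower and 5, 9 and 2 higher genes. Of the 13 genes of mitochondrial DNA, 0 were called in either direction (1 at an unadjusted edgeR p under 0.05, and 0 by DESeq2), with a median of 0.11. This depended on DMSO replicate 4: without it 12 of the 13 were called higher (median 0.32).

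Genes of the translation machinery were mostly lower, by small steps. Of 79 cytosolic ribosomal protein genes 61 fell and 1, RPL22, rose (median −0.16), with RPL24 at −0.55. RPL22 changed by 0.09 and was not called without DMSO replicate 1, 2 or 4 or STM2457 replicate 2 (0.08 to 0.11 without single libraries). Their summed share of all counts was 5.17 to 5.41% with DMSO and 4.57 to 4.85% with STM2457, without overlap. Of 51 initiation and elongation factor genes 37 fell and 4 rose (−0.19), of 22 aminoacyl-tRNA synthetase genes 16 fell and 3 rose (−0.20), and of 80 mitochondrial ribosomal protein genes 48 fell and 17 rose (−0.16). With scaling to ribosomal protein genes these became 20 and 14, 10 and 6, and 29 and 29. The translation factor genes that rose were EIF3A (0.29), EIF4EBP1 (0.17), EIF2B2 (0.15) and EEF2K (0.14), and the synthetase genes SARS1 (0.10), CARS1 (0.09) and AARS1 (0.08). Of these, CARS1 and AARS1 were not called when DMSO replicate 2 or 4 or STM2457 replicate 2 or 3 was left out, nor CARS1 without DMSO replicate 3 (0.07 to 0.12 for CARS1 and 0.06 to 0.11 for AARS1 without single libraries). FARSB, a subunit of phenylalanyl-tRNA synthetase, changed by −0.88. Of 12 RNA polymerase II subunit genes 10 fell and 0 rose (−0.20), with 0 higher by DESeq2 and at an unadjusted edgeR p under 0.05, and 4 fell and 2 rose with that scaling. When libraries were scaled to these ribosomal protein genes, which by construction centres their list, the median over all genes shifted by 0.17, and this changed the overall split from 5104 higher and 5140 lower to 7531 higher and 2405 lower. Lists with small negative medians, of about −0.2 or nearer to 0, therefore depended on the scaling. The 9 h libraries held 0 counts on ERCC spike-in RNA, so they could not be scaled to spike-ins. The 6 h libraries used further below held 123174 to 196768 such counts, which were not used here.

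**Figure D3:**
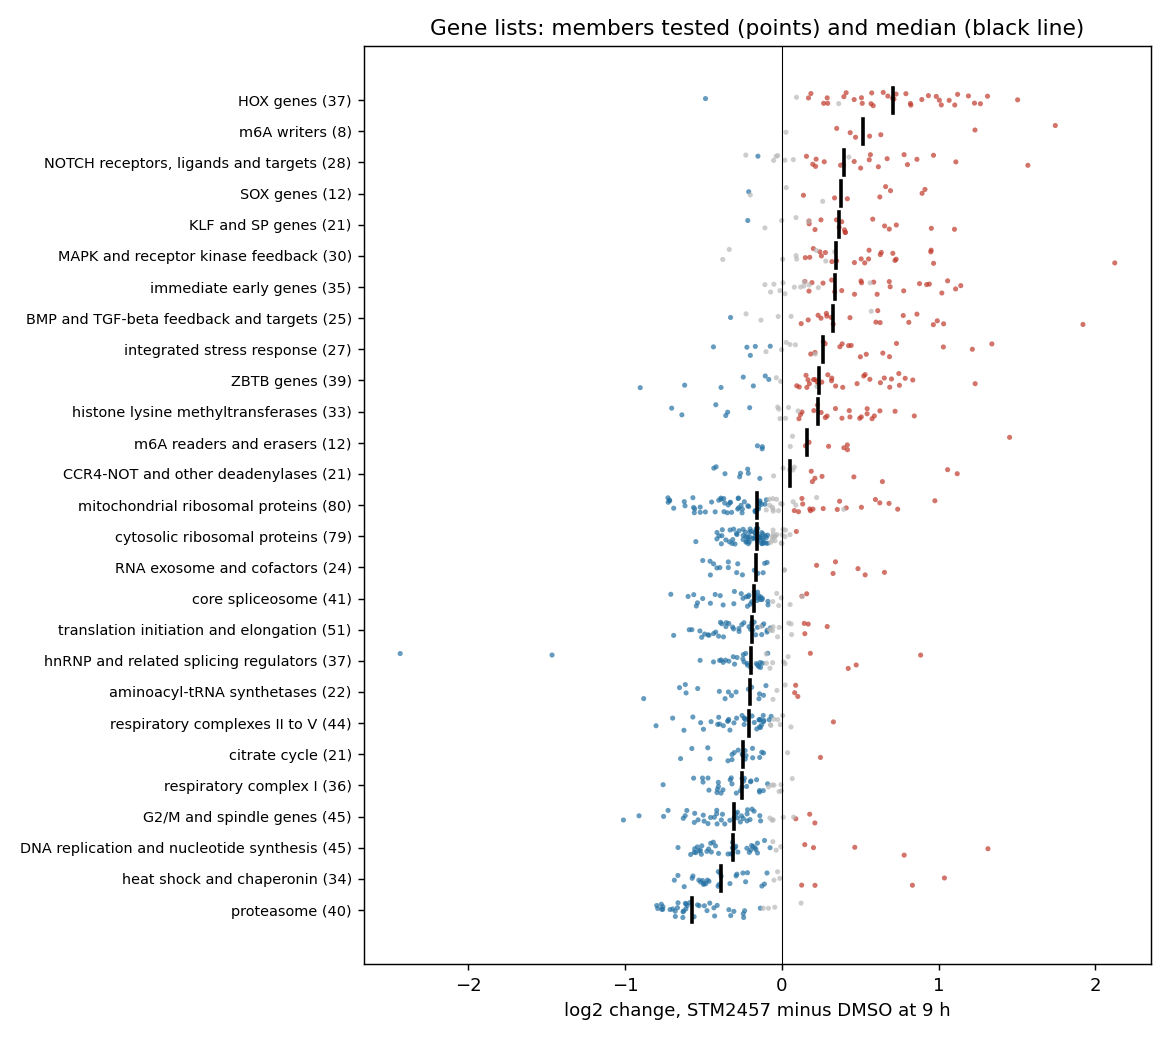
Log2 change with STM2457 at 9 h (horizontal axis) of every tested member of the gene lists (rows), each point 1 gene, with the list's median as a bar. HOX genes lie mostly to the right of 0 (median 0.71) and proteasome genes mostly to the left (median −0.57).

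Coding sequences differed between the genes that rose and the genes that fell. For 13096 tested protein coding genes a complete coding transcript was found, and of these 34.7% rose and 35.4% fell. At least 1 consensus motif was present in the coding sequence of 13090 of them, so presence alone did not sort the genes. Motifs were therefore also counted only where the adenosine lay at least 100 bases from every exon junction, a criterion taken from the known placement of m6A and added after the values had been seen. At least 1 such motif was present in 78.5% of the genes.

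Genes with no motif away from junctions (2822) rose in 11.3% and fell in 62.3% of cases, with a median log2 change of −0.19. With 2 to 3 motifs (2038 genes) 19.9% rose and 45.1% fell, and with 4 to 7 motifs (2154 genes) 35.4% and 28.7%. With 8 to 15 motifs (1966 genes) 53.8% rose and 15.5% fell. With 32 or more (1047 genes) 70.6% rose and 7.93% fell, with a median of 0.34. The share that rose went up and the share that fell went down at every step. These are descriptions over genes, which are not replicates, and no test was made. The shares were counted under TMM scaling only. With scaling to ribosomal protein genes the median over all genes shifted by 0.17, close in size to the −0.19 of genes with no such motif. Whether those genes fell therefore depended on the scaling. A common shift moves all groups alike and leaves their order.

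**Figure D4:**
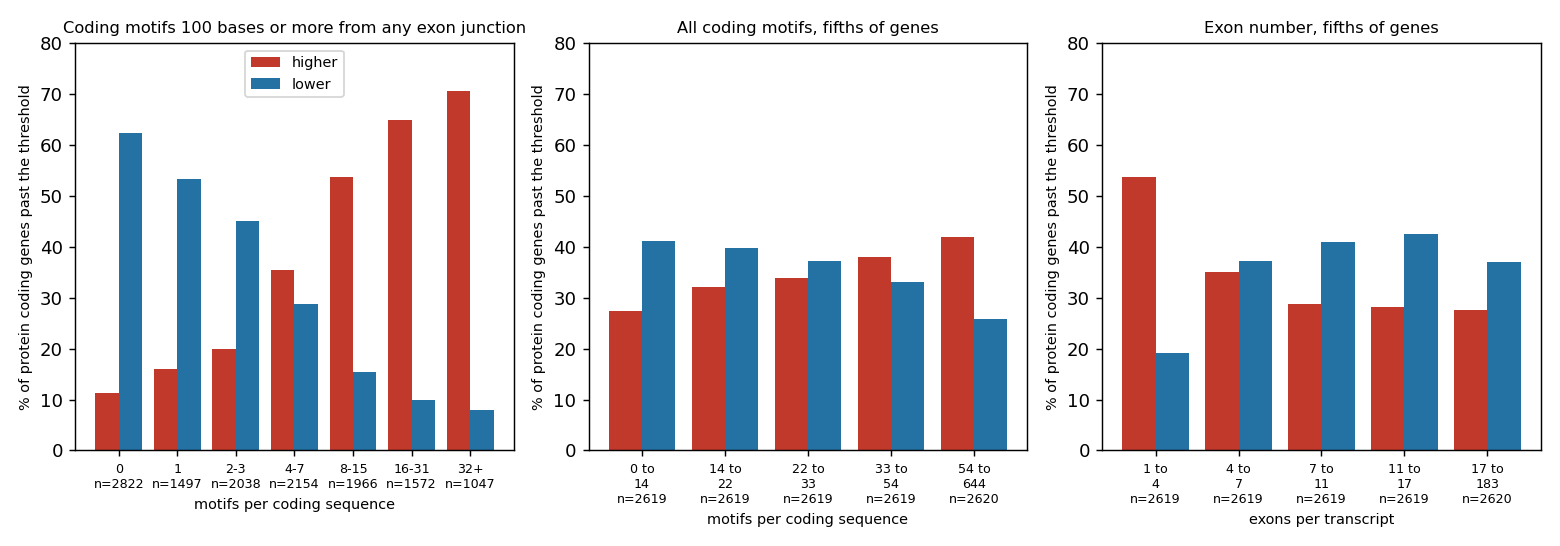
Share of tested protein coding genes called higher and called lower with STM2457 at 9 h (vertical axis, percent) by the number of m6A consensus motifs in the coding sequence at least 100 bases from an exon junction (horizontal axis). Under TMM scaling the share called higher goes from 11.3% at 0 motifs to 70.6% at 32 or more, and the share called lower from 62.3% to 7.93%. The split between higher and lower depends on the scaling.

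The count of all coding motifs, wherever they lay, sorted the genes much less: from the lowest to the highest quintile the share that rose went from 27.5% to 41.9%. The same held for coding length itself, from 22.9% to 41.8%. Within quintiles of coding length, the tertile of genes with the most motifs away from junctions rose in 42.0%, 63.7%, 65.2%, 69.3% and 68.0% of cases, and the tertile with the fewest in 11.8%, 10.7%, 13.9%, 15.7% and 17.2%. Within quintiles of expression the same shares were 42.3%, 65.5%, 70.2%, 71.5% and 62.4% against 16.2%, 17.1%, 14.5%, 13.1% and 7.10%. The separation was thus present at every length and expression level examined. It was not examined within levels of exon structure, which sets how much coding sequence lies away from junctions. Motif number and exon structure therefore cannot be told apart here.

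The distance chosen mattered little for the direction. With a minimum of 50 bases, genes with no such motif rose in 7.5% and those with 8 or more in 43.8% of cases. At 150 bases these shares were 14% and 65.6%, and at 200 bases 16.2% and 67.0%. At 100 bases they were 11.3% and 61.5%.

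Exon structure showed the same contrast. The 326 genes with 1 exon rose in 61.3% and fell in 13.2% of cases, against 34.0% and 36.0% of the spliced genes. In the quintile of genes with the longest internal exon 57.1% rose, compared with 21.4 to 31.7% in the other quintiles. By number of exons the share that rose went from 53.8% in the quintile with the fewest to 27.7% in the quintile with the most. Genes with longer 3′ untranslated regions rose more often, 23.1% in the shortest and 45.6% in the longest quintile. Of the most abundant quintile of genes 28.9% rose and 53.7% fell.

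The genes named above for the size of their change mostly followed this order, with exceptions on both sides. In TENT5B 18 of 19 coding motifs lay away from junctions, in PCDH10 47 of 60, in KCTD12 10 of 10, in RBM15 52 of 55, in YTHDF2 35 of 39 and in FAT4 299 of 356. Among genes that fell the counts were 0 of 30 in HNRNPL, 2 of 25 in HNRNPLL, 0 of 19 in NPM1 and 1 of 68 in EIF4G2. GNB3 (1 of 23) and ID3 (2 of 5) rose with few, and ZNF33B (55 of 66), ARMH4 (36 of 56) and BCHE (36 of 46) fell with many. Of the genes with the largest losses in CPM, HSP90AA1 (16 of 77), HSPA8 (10 of 45) and HSP90AB1 (9 of 50) also held more. The others, besides NPM1 and EIF4G2, were ENO1 (1 of 27), RACK1 (1 of 25) and HNRNPU (4 of 39). The 283 genes that rose by 2-fold or more and had a transcript held a median of 16 such motifs and 10 held none. The 62 that fell by as much held a median of 3 and 16 held none. Over all 13096 genes the median was 4 and 2822 held none, so the large decreases lay near this background. The share that fell by 2-fold or more was 0.567% with no such motif and 0.478% with 32 or more. In the proteasome list 22 of 39 genes with a transcript held none and the median was 0, whereas the 8 writers held a median of 34.5.

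The same inhibitor had been given at 20 µM for 6 h in the other experiments. Each had 3 libraries of STM2457 and 3 of DMSO without YTHDF2 siRNA or emetine. In the emetine experiment the labels of these libraries also name a shorter DMSO treatment in place of emetine. The difference between the 9 h effect and the mean of both 6 h effects was tested in 1 edgeR fit of 20 libraries and 16720 genes. Time and experiment changed together, so they cannot be told apart. The 6 h cultures outside the emetine experiment are called the knockdown experiment here, although the titles of those without YTHDF2 siRNA name no experiment. The labels also do not say whether these received a control siRNA. The effect was more positive at 9 h for 2513 genes (15%) and more negative for 3939 (23.6%), 38.6% in either direction. With scaling to ribosomal protein genes the median difference over all genes shifted by 0.41 and the counts became 10114 and 109, and with library totals alone it shifted by 0.12 and they became 3993 and 1871.

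Of the 15 genes with the largest increases at 9 h, 9 had a more positive effect than at 6 h, 2 a more negative one, and 4 did not pass. These genes were chosen by their 9 h change, which favours a larger value at 9 h, so the counts are given as a description. FAT4 had smaller values at 6 h, with log2 changes of 0.22 in the knockdown and 0.11 in the emetine experiment against 1.87 at 9 h, a difference of 1.69 (SE 0.08, edgeR adjusted p = 5.08e-15). NEXMIF showed the same order, with 0.32 and −0.18 at 6 h and a difference of 1.52 (SE 0.20). PCDH10 was already at 1.36 and 1.35 at 6 h and its difference was 1.24. KCTD12 was at 0.88 and 0.55, with a difference of 1.21. These 4 differences were positive under each scaling used.

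Other genes had a change at 6 h that was as large or larger. TRIM13 changed by 1.95 and 1.95 at 6 h and by 1.93 at 9 h (difference −0.04, edgeR adjusted p = 0.607), and ID3 and MED18 did not pass either. RBM15 was at 2.24 and 2.16 at 6 h and its effect was more negative at 9 h (difference −0.47), which was no longer called with scaling to ribosomal protein genes (−0.06). HOXD13 also had a more negative effect at 9 h (difference −0.26), but this difference was 0.15 with scaling to ribosomal protein genes. Differences for METTL14 and YTHDF2 were −0.13 and −0.33, and both were positive with that scaling (0.27 and 0.08). That of METTL14 was not called when any of 12 single libraries of the 20 was left out (−0.1500 to −0.1133).

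Of the 15 genes with the largest decreases, 6 had a more positive and 6 a more negative effect at 9 h, and 3 did not pass. SDHAF1 had changed more at 6 h, by −2.53 and −3.04, and the difference was 0.95 (SE 0.12). HNRNPL went the other way, with −0.77 and −0.79 at 6 h and a difference of −0.70 (SE 0.05), and so did PIR, with −0.22 and −0.21 and a difference of −0.86. For HNRNPLL the values were −2.37 and −2.63, and the difference of 0.05 was not called (edgeR adjusted p = 0.713). Medians of lists at both times are given without a test. The proteasome list had a median of −0.08 and −0.20 at 6 h and −0.57 at 9 h. Complex I had 0.16 and 0.03 at 6 h and −0.26 at 9 h, and cytosolic ribosomal proteins 0.31 and 0.16 at 6 h and −0.16 at 9 h. HOX genes had 0.52 and 0.46 at 6 h and 0.71 at 9 h, while the writers had 0.60 and 0.62 at 6 h and 0.51 at 9 h. The ribosomal protein scaling displaced the median difference over all genes by 0.41. The shifts of the proteasome, complex I, ribosomal protein, HOX and writer lists were of about that size or smaller. They are given relative to the main scaling only.

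**Figure D5:**
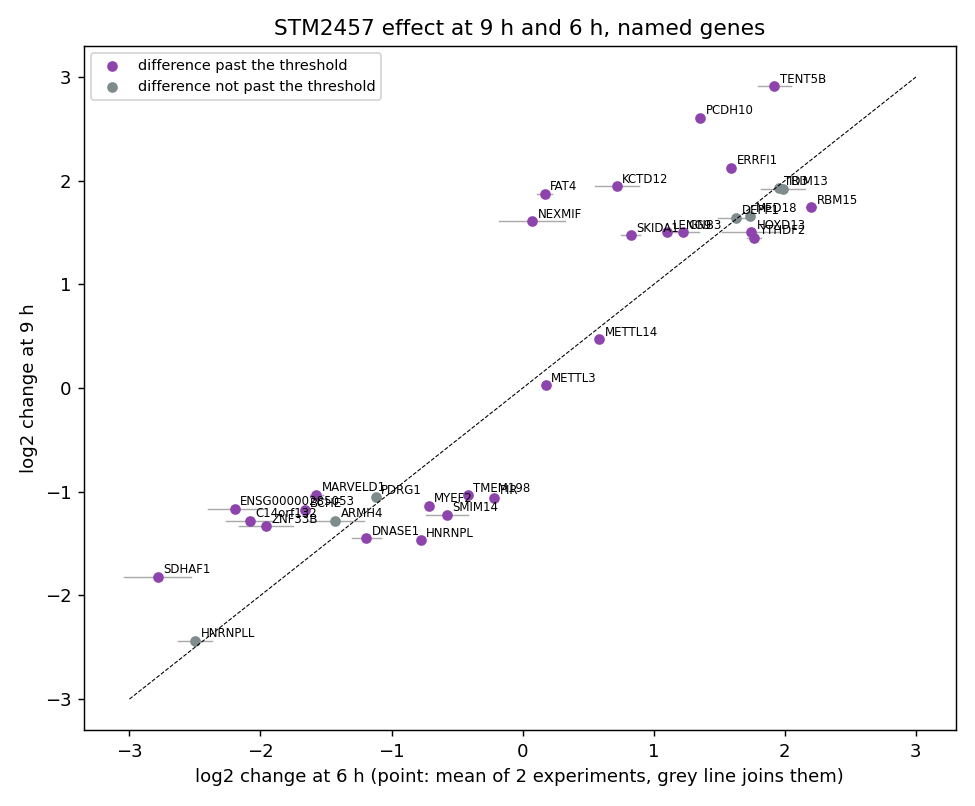
Log2 change with STM2457 at 9 h (vertical axis) against the mean of the log2 changes in both 6 h experiments (horizontal axis), each point 1 gene. Shown are the genes with the largest changes at 9 h, with METTL3, METTL14 and YTHDF2. A grey line joins the values of both 6 h experiments, and the dashed line marks equal values. Colour shows whether the difference between 9 h and 6 h passed the threshold. FAT4 and NEXMIF lie at or below 0.32 at 6 h and above 1.5 at 9 h, while HNRNPLL and TRIM13 lie at like values at both times.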

How the data were processed

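The deposited values are whole-number read counts per gene and library, not normalized. The submitters' processing notes list STAR 2.7.3a, featureCounts of Subread 2.0.0, cutadapt 1.18 and 4.0, Trimmomatic, SAMtools 1.9 and FastQC 0.11.8, with GRCh38.p12 as the genome build. Annotation release and strand setting were not given in the sources used here. Counts were tested in R 4.3.3 with edgeR 4.0.16 (TMM, filterByExpr, quasi-likelihood F test, Benjamini-Hochberg adjustment over all genes tested, threshold 0.05), with DESeq2 1.42.0 as an alternative. Libraries held 22510323 to 34677704 counts on genes. The labels do not state that replicates were separate cultures, and the p-values then measure only the spread among these samples, which may be technical. Across all genes no pairing by equal replicate numbers was seen: the deviations from the group means correlated at 0.03, −0.02, 0.01 and 0.06. This does not exclude a pairing that touches few genes. Replicate 4 held the largest share of mitochondrial DNA transcripts in both groups, 2.27% with DMSO and 2.04% with STM2457. Tested on simulated data for 15682 genes, the 9 h fit recovered 39, 45, 50 and 50 of 50 genes changed 1.25-, 1.5-, 2- and 4-fold, with 11 false calls. Only these genes were changed in the simulation, so it does not test the scaling of data in which 64.7% of genes were called.

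The comparison, the gene lists and the tests were chosen with earlier results of these data known. The text names METTL3, METTL14 and YTHDF2; per direction, 15 protein coding genes by size of change (adjusted p under 0.05, mean log2 CPM of at least 2, no overlap between groups); the 8 with the largest gain and loss in CPM; the 5 of other biotypes; and up to 4 members of a list by smallest p, with members that went against the rest. HOXA10, NPM1 and PSMC4 windows serve as examples. Coding sequences came from GENCODE release 29, and exon overlaps were counted from 100 bases. Besides the pairs in the text, overlaps of over 10% of a named gene make reads uncertain for HNRNPU (COX20), FOXM1 (ITFG2), GINS3 (ENSG00000276131), SMURF1 (TRRAP), PCBP1 (PCBP1-AS1), HSPA1B (ENSG00000285565), MAT2A (GGCX), ZNF503 (ZNF503-AS2), HOXD4 (AC009336.2), IPO5P1 (ENSG00000269107), ADRM1 (LAMA5), DDIT3 (MARS1), HOXA10 (HOXA10-AS), LSM1 (BAG4), NEFM (ENSG00000272163), PSMC5 (FTSJ3), RBM15B (DCAF1), SETDB1 (CERS2), TYMS (ENOSF1), VIM (VIM-AS1) and KRT18 (KRT8). Smaller overlaps are not all named.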

Additional observations from a re-analysis of the deposited data

Results flagged for a closer look

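In groups of 4 libraries, 1 library lay apart from the other 3 in 18 of 196 groups examined, where chance alone gives about 1 in 20. STM2457 replicate 1 was the low library for ID3 (170 CPM) and DEPP1 (18.7 CPM). The other values that lay apart were, with DMSO, 44.2 CPM for ERRFI1, 25.1 for TRIM13, 14.7 for FAT4, 4.49 for CCNT2-AS1, 7.86 for IPO5P1, 3.40 for HOXD4 and 61.9 for NUMB. With STM2457 they were 10.8 CPM for LENG9, 152 for HNRNPL, 17 for ZNF33B, 1820 for ENO1, 88.4 for METTL3, 107 for BAG3, 142 for DHX8 and 84.6 for EZH2. The share of counts in the 10 most abundant genes was 3.39% in DMSO replicate 4, apart from the other controls.

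The STM2457 effect differed between 9 h and 6 h by an edgeR test of the difference for 26 of 33 genes examined, and time and experiment cannot be told apart. On the log2 scale the effect at 9 h was more positive for FAT4 by 1.69, NEXMIF by 1.52, PCDH10 by 1.24, KCTD12 by 1.21, ENSG00000285053 by 1.02, TENT5B by 0.97, SDHAF1 by 0.95, C14orf132 by 0.79, SKIDA1 by 0.64, ZNF33B by 0.61, MARVELD1 by 0.53, ERRFI1 by 0.52, BCHE by 0.47, LENG9 by 0.39 and GNB3 by 0.27. It was more negative for PIR (−0.86), HNRNPL (−0.70), SMIM14 (−0.66), TMEM198 (−0.63), RBM15 (−0.47), MYEF2 (−0.43), YTHDF2 (−0.33), DNASE1 (−0.27), HOXD13 (−0.26), METTL3 (−0.17) and METTL14 (−0.13). Leaving out single libraries ended the call of METTL14 in 12, of DNASE1 in 12, of GNB3 in 11 and of LENG9 in 1 of 20 cases, for LENG9 DMSO replicate 1 at 9 h. The values of YTHDF2, DNASE1, HOXD13, METTL3 and METTL14 turned positive with scaling to ribosomal protein genes.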

How the results depend on the processing

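The counts of genes higher and lower, 5104 and 5140, stayed within 1.5 times their values under DESeq2 (4740 and 4764), DESeq2's size factors (5144 and 5104), library totals (5422 and 4734), no filter (5400 and 5014), a mean CPM of at least 1 (5008 and 4636) and the fit with the replicate block (5114 and 5110), and without each library in turn (4906 to 5109 higher, 4911 to 5044 lower). With libraries scaled to ribosomal protein genes the counts were 7531 and 2405, and 7509 of the 10244 calls were shared; with DESeq2 9496 were shared. Counts past 2-fold, 393 and 168, became 712 and 100 with that scaling, 695 and 379 without a filter and 414 to 461 and 171 to 221 without single libraries. Genes lower by 2-fold numbered 68 at a mean CPM of at least 1. A test against a fold of 1.5 called 750 higher genes. With the replicate block, 395 and 169 genes passed 2-fold, and 22 of the 30 named differences between 9 h and 6 h passed in place of 23; without single libraries 21 to 23 did. The block moved the mitochondrial DNA genes called higher from 0 to 6 of 13, and no filter to 11. Where libraries were scaled to ribosomal protein genes the log2 changes of NUMB, FMR1, IGF2BP1, YTHDC2 and TENT2 turned to 0.0195, 0.0176, 0.0484, 0.0502 and 0.0443, METTL3 was called (0.20), and the differences between 9 h and 6 h of TRIM13, ID3, MED18, DEPP1, HOXD13, DNASE1, METTL3, METTL14 and YTHDF2 turned to 0.37, 0.33, 0.32, 0.40, 0.15, 0.14, 0.24, 0.27 and 0.0841. With library totals those of TRIM13, ID3, MED18 and DEPP1 were 0.0794, 0.041, 0.0347 and 0.12, and DEPP1 was 0.0335 at a mean CPM of at least 1. Without single libraries the DEPP1 difference ranged from −0.0254 to 0.0569 and that of HNRNPLL from −0.0038 to 0.1262, both uncalled with all libraries. Small list counts also moved by over 1.5 times without single libraries: poly(A) polymerases lower from 2 to 1, SOX genes lower from 1 to 0 or 2, genes of complexes II to V higher from 1 to 2 and aminoacyl-tRNA synthetases higher from 3 to 1. The cause of these moves was not tested. Of the 5590 genes not called, 2538 had a 95% interval within 1.25-fold either way, and for the others a change of that size was not resolved.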

Other observations

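Genes outside the protein coding class were described by their shares, without a test. Of 832 antisense genes 21.9% were higher and 18.8% lower, and of 623 long intergenic RNAs 23.4% and 20.5%, against 34.6% and 35.4% of 13133 protein coding genes. Among genes of these other classes whose mean log2 CPM reached 2 and whose groups did not overlap, the largest increase belonged to ENSG00000270182, a sense intronic RNA at chr7:27158344-27158976 within the HOXA region, which was at 0.963, 0.801, 0.905 and 0.843 CPM with DMSO and at 10.3, 8.71, 8.699 and 9.64 CPM with STM2457 (log2 change 3.40, SE 0.12). The groups were far apart, although the level with DMSO was below 1 CPM. HOXA11-AS, the antisense RNA of HOXA11, rose from 6.14 ± 0.297 to 15.5 ± 1.39 CPM. Exons of HOXA11 on the other strand overlap 22.9% of it, so a part of its reads is uncertain. ENSG00000272692, ENSG00000259994 and the pseudogene SMG1P7 rose by 1.79, 1.62 and 1.5. Under the same limit the largest decreases were in ATP6V0E2-AS1 (−1.78), MIR600HG (−1.53), CCNT2-AS1 (−1.43), OGFRP1 (−1.26) and IPO5P1 (−1.25), of which the first 3 overlap exons of ATP6V0E2, STRBP and CCNT2.

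Several lists stood between the extremes described above, and most of them depended on the scaling. Of 237 solute carrier genes 117 were higher and 47 lower, of 53 KLHL, KBTBD and KCTD genes 30 and 10, and of 14 small nucleolar RNA host genes 7 and 2. These 3 held more increases than decreases with scaling to ribosomal protein genes as well (158 and 22, 37 and 2, and 12 and 1). Of 43 lysosome and autophagy genes 4 were higher and 26 lower, of 35 genes of hypoxia and glycolysis 5 and 20, of 26 cholesterol synthesis genes 6 and 15, and of 24 cohesin and condensin genes 5 and 15. With scaling to ribosomal protein genes these became 18 and 13, 13 and 10, 8 and 9, and 8 and 6. The p53 target list held 11 higher and 8 lower of 26, and the interferon list 3 and 5 of 20, or 17 and 3, and 4 and 2, with that scaling.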
